A study of Homo sapiens with 20 samples.

Results

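The 9 genes described here make and load MHC class I, the surface complex that shows peptides from inside the cell to CD8+ T cells. They are HLA-B, HLA-C, B2M, TAP1, TAP2, TAPBP, PSMB8, PSMB9 and NLRC5. They were taken by name, and their 53 rows were found among 40117 rows under 36346 gene names in all 20 libraries. Rows that share a name were summed, and they are also described singly.

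The libraries came from HT29 and SW480, established human colorectal cancer cell lines in which the region of POLR1D is present in extra copies. POLR1D encodes a subunit shared by RNA polymerases I and III. Cells received a scrambled negative control siRNA (SCR) or 1 of 2 siRNAs against POLR1D, siPOLR1D2 or siPOLR1D3, and RNA was taken 72 h later. There were 4 SCR, 2 siPOLR1D2 and 2 siPOLR1D3 libraries of HT29, and 6, 3 and 3 of SW480, and the siRNAs are pooled as silenced libraries unless named. Silencing was transient, each line is 1 cell line, and the labels name neither T cells nor interferon. The labels do not say that replicates came from separate cultures, so p values measure the spread between these libraries, which may be technical.

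In a class I complex, a heavy chain such as HLA-B or HLA-C pairs with B2M, the invariant light chain. PSMB8 and PSMB9 are catalytic subunits of the immunoproteasome that cut proteins into peptides, the TAP1 and TAP2 transporter carries the peptides into the endoplasmic reticulum, and TAPBP (tapasin) holds the empty complex at the transporter. NLRC5 is a transactivator of class I genes, and interferon raises many genes of this pathway in epithelial cells.

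The values are normalized read counts, set to a common scale within each line. Estimated depth was 13500000 to 27600000 reads a library. On the first principal component (43.3% of the variance), SCR replicate 1 stood apart from the other HT29 libraries. In SW480 (42.0%) SCR replicates 1 to 3 and siPOLR1D2 replicates 1 and 2 lay on 1 side and the other 7 libraries on the other. POLR1D was at 4433 to 6036 in HT29 SCR libraries and 2550 to 3492 in silenced ones. It was at 1829 to 2599 against 843 to 1336 in SW480, so both arms were apart in each line. Its log2 fold change was -0.72 in HT29 (limma adjusted p = 0.355) and -1.04 in SW480 (limma adjusted p = 0.00099). Epithelial markers were high as a sum (132243 to 260352 over 8 genes). Single markers were low, CDH17 at 2.32 to 21.6 and CDX2 at 7.91 or less in HT29, and KRT20 at 1.73 to 11.2 in SW480 SCR. Leukocyte markers summed to 74.9 to 179 over 6 genes, with CD3E at 4.68 or less and MS4A1 at 0.814 or less. CD68, a lysosomal protein of macrophages, had the highest mean of the list (39.3 to 161 over the libraries), and CD14, a monocyte receptor, reached 62.6 in HT29 and 30.8 in SW480.

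All members but B2M and NLRC5 lie in the MHC region on chromosome 6 (GENCODE v29, GRCh38). HLA-C spans chr6:31268749-31272130 and HLA-B ends at chr6:31357188, both on the minus strand. TAP2 (chr6:32821833-32838780), PSMB8 (chr6:32840717-32844703) and TAP1 (chr6:32845209-32853978) follow on the minus strand, and TAPBP is at chr6:33299694-33314387. PSMB9 (chr6:32844136-32859585) lies on the plus strand, and its annotated span overlaps TAP1 and PSMB8. B2M is at chr15:44711487-44718877 and NLRC5 at chr16:56989485-57083531. Near-identical sequence limits some values. Of the 31-base words in the longest coding transcript, 20.1% of HLA-C, 15.6% of HLA-B, 36.0% of TAP2 and 14.3% of PSMB9 also occur in transcripts of other gene names, so reads from those stretches could be counted under either name.

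The promoters of 8 of the 9 genes were in the RefSeq table (GRCh38.p14), and 5 are shown since they belong to genes that moved together, or not, among the HT29 controls. Each is the 250 bases before the start, 5′ to 3′ on the gene's strand: HLA-B (chr6:31357180-31357429, minus), HLA-C (chr6:31272093-31272342, minus), B2M (chr15:44711267-44711516, plus), TAP1 (chr6:32853705-32853954, minus) and TAPBP (chr6:33314079-33314328, minus). Capitals mark matches on either strand to an interferon-stimulated response element (a GAAA repeat with any 2 bases between), to a shorter form (GAANNGAAA), to GGGGATT (a kappa B type), to TGACG (an X2 type) and to CCAAT.
HLA-B: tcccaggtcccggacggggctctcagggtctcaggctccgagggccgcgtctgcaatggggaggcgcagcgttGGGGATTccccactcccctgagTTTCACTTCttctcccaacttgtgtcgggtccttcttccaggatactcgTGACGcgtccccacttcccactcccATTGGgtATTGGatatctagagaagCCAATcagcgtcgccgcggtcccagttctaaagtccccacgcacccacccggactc
HLA-C: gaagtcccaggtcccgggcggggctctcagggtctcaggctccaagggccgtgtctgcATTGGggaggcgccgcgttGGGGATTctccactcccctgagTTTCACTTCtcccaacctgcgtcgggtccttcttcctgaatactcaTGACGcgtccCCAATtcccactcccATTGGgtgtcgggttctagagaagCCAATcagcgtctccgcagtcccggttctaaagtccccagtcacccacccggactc
B2M: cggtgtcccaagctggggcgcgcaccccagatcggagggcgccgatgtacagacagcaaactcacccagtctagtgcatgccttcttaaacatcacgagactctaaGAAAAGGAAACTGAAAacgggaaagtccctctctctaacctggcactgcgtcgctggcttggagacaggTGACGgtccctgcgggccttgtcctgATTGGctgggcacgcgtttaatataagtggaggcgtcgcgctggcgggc
TAP1: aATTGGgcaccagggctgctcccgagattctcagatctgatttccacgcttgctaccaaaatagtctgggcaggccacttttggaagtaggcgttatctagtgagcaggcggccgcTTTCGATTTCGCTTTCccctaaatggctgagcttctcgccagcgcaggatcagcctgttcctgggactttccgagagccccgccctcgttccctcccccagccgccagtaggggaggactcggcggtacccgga
TAPBP: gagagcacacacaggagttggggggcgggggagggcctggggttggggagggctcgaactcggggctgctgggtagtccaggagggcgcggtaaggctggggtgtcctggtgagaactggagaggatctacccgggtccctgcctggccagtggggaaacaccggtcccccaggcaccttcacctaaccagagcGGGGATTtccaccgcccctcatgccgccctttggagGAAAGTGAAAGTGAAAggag

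The HLA-B and HLA-C promoters were alike in 226 of 254 aligned positions (89.0%) and carried the kappa B type motif, the shorter interferon form, the X2 type motif and CCAAT boxes in the same order, with 1 more CCAAT box further upstream in HLA-C. The longer element occurred in B2M, TAP1, TAP2 and TAPBP. The shorter form occurred in HLA-B at -155 to -147, in HLA-C at -151 to -143, and in TAP2, where it overlaps the longer one. In B2M, TAP1 and TAPBP there were 2 overlapping matches of the longer element each, at -144 to -129, -134 to -119 and -20 to -5. At least 1 form was present in 6 of 8 members, against 9.08% of 35116 promoters of the same length, and the longer and shorter forms were in 3.02% and 6.56% of them. GGGGATT was found in 3 members (3.19% of all promoters), TGACG in 6 (21.2%) and CCAAT in 5 (32.0%). TAP1 and PSMB8 have a second start in the table, and those windows held none of these letters. A match is a description of the sequence only.

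Levels of the 9 genes in the SCR libraries were compared per kilobase of the longest coding transcript, after each library was scaled to a total of 1000000. The libraries were captured for coding sequence and this length is that of the whole transcript, so the order between genes is approximate. Before division by length, the mean of TAP2 was above that of TAP1, at 58.2 against 36.0 in HT29 and 40.2 against 33.5 in SW480. In HT29 SCR, B2M was highest at 319 ± 140 (SD, n = 4), followed by HLA-C at 79.4 ± 39.2, and the range of each (198 to 507, and 41.0 to 130) was apart from all other members. PSMB8, TAP1, HLA-B, TAP2, TAPBP and PSMB9 followed at means of 15.4, 12.2, 12.1, 10.2, 7.71 and 5.11 with overlapping ranges. NLRC5 was lowest at 0.515 ± 0.499, and its range overlapped those of PSMB9 and HLA-B. In SW480 SCR, HLA-C was first at 158 ± 17.3 (SD, n = 6) and B2M second at 117 ± 10.4, with overlapping ranges. HLA-B followed at 36.8 ± 9.21, apart from both its neighbours in the order. Next came TAP1, PSMB8, TAP2, PSMB9 and TAPBP at means of 11.3, 10.6, 7.07, 4.31 and 3.54, each overlapping the next in this order. NLRC5 was again lowest at 0.746 ± 0.144, below every other member. HLA-C was thus below B2M in HT29 and level with or above it in SW480. The lines were normalized separately, so no test was made between them.

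Class I genes spread widely among the HT29 controls. HLA-B was at 34.4, 27.7, 417 and 896 normalized reads in SCR replicates 1 to 4. It was at 19.4 and 120 with siPOLR1D2 and at 171 and 157 with siPOLR1D3. The silenced libraries lay inside the range of the controls except siPOLR1D2 replicate 1, which was below all of them. HLA-C followed with 1878, 1194, 2555 and 3698 in SCR, 1341 and 2001 with siPOLR1D2, and 1960 and 2037 with siPOLR1D3. B2M was at 8204, 6312, 10715 and 15838 in SCR, 5800 and 9303 with siPOLR1D2, and 9151 and 8868 with siPOLR1D3. In all 3 genes SCR replicates 3 and 4 were the highest libraries of the line.

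The transporter showed the same order. TAP1 was at 406, 132, 929 and 1234 in SCR, 147 and 499 with siPOLR1D2, and 531 and 577 with siPOLR1D3. TAP2 was at 588, 424, 1531 and 1815 in SCR and between 744 and 902 in the 4 silenced libraries. TAPBP was the exception, with 588, 460, 524 and 640 in SCR and 481 to 577 after silencing, so all 8 libraries lay between 460 and 640.

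The immunoproteasome subunits and NLRC5 also ranged widely. PSMB8 was at 277, 153, 436 and 701 in SCR, 127 and 316 with siPOLR1D2, and 287 and 302 with siPOLR1D3. PSMB9 was at 32.0, 104.7 and 164 in SCR replicates 1, 3 and 4 and was listed at 0 in SCR replicate 2. It was at 9.09 and 53.8 with siPOLR1D2 and at 52.1 and 49.0 with siPOLR1D3. NLRC5 was at 19.0, 8.73, 96.0 and 137 in SCR, 7.27 and 16.2 with siPOLR1D2, and 52.4 and 36.0 with siPOLR1D3. SCR replicates 3 and 4 were again highest, and siPOLR1D2 replicate 1 was the lowest or second lowest of the 8 libraries for every member except TAP2.

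**Figure D1:**
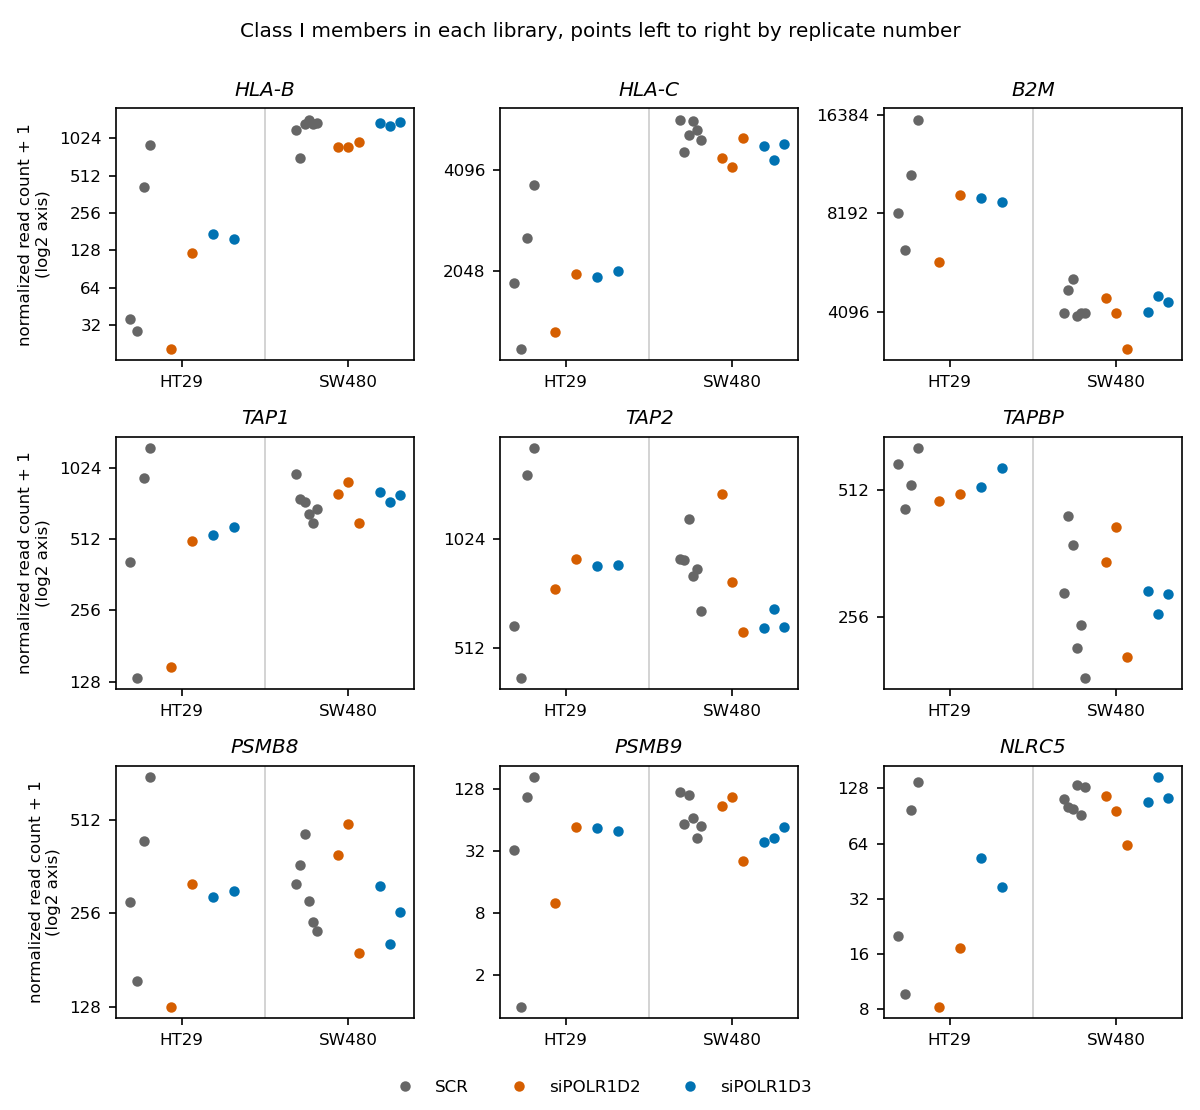
Each panel plots the normalized read count plus 1 of 1 gene (log2 axis) in every library of HT29 (left) and SW480 (right), with points for SCR, siPOLR1D2 and siPOLR1D3 libraries. The HT29 controls span 27.7 to 896 for HLA-B, while the SW480 libraries stay within 704 to 1448.

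On the log2 scale the SD between the HT29 SCR libraries was 3.34 for PSMB9, 2.50 for HLA-B, 1.83 for NLRC5, 1.44 for TAP1, 1.03 for TAP2 and 0.93 for PSMB8. The median over 13234 genes was 0.32 and the 90th percentile 0.86, so these 6 genes were above that percentile. HLA-C (0.69) and B2M (0.57) lay above the median, and TAPBP (0.21) below it. The SD of PSMB9 includes SCR replicate 2, listed at 0, where the other SCR libraries were at 32.0 to 164. In SW480 SCR the SDs ran from 0.12 (HLA-C) to 0.59 (PSMB9), with a median of 0.33 and a 90th percentile of 0.97 over 14964 genes. No member was above that percentile in SW480.

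**Figure D2:**
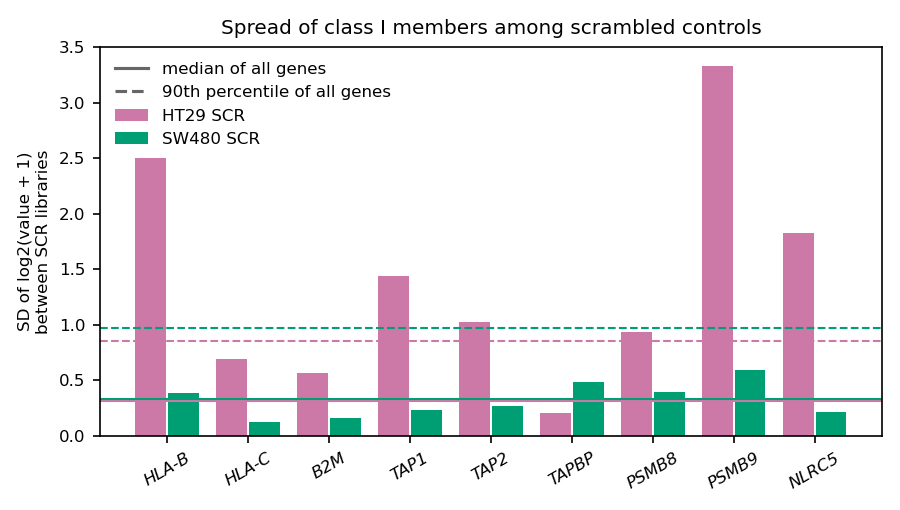
Bars give the SD of log2(value + 1) between SCR libraries for each member in HT29 (n = 4) and SW480 (n = 6), with solid lines at the median and dashed lines at the 90th percentile over all genes with an SCR mean of at least 10. PSMB9, HLA-B, NLRC5, TAP1, TAP2 and PSMB8 rise above the HT29 dashed line, and none rises above that of SW480. The HT29 bar of PSMB9 includes 1 library listed at 0.

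The members also moved together in HT29. After each library was centred on its arm, Pearson's r between 2 members ran from 0.56 (TAP2 with TAPBP) to 0.99 (B2M with PSMB8), with a median of 0.91 over 36 pairs and 8 libraries. In SW480 the range was -0.58 (HLA-C with TAPBP) to 0.86 (TAPBP with PSMB8), with a median of 0.32 over 12 libraries and 15 pairs below 0. These values are a description. The members share each library's depth, and those that share exons or sequence also share reads.

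Over the 20 libraries, centred by line and arm, the 5 genes among those tested in both lines that varied most like the mean of the members included PARP9 (r = 0.96), PLSCR1 (0.94), PARP12 (0.94) and OAS1 (0.91). OAS1 is an enzyme that senses double-stranded RNA. PARP9 and PARP12 belong to the ADP-ribosyltransferase family, and PLSCR1 is a phospholipid scramblase. PARP9 was at 553, 325, 2021 and 3670 in HT29 SCR replicates 1 to 4 and at 414 to 878 in the silenced libraries. OAS1 was at 441, 224, 1696 and 2650 in SCR and at 173 to 677 after silencing. SCR replicates 3 and 4 were highest for both, as for the members other than TAPBP, an order that choosing genes by this correlation favours. In SW480 alone r was 0.87 for PARP12, 0.75 for PLSCR1, 0.74 for PARP9 and 0.07 for OAS1.

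**Figure D3:**
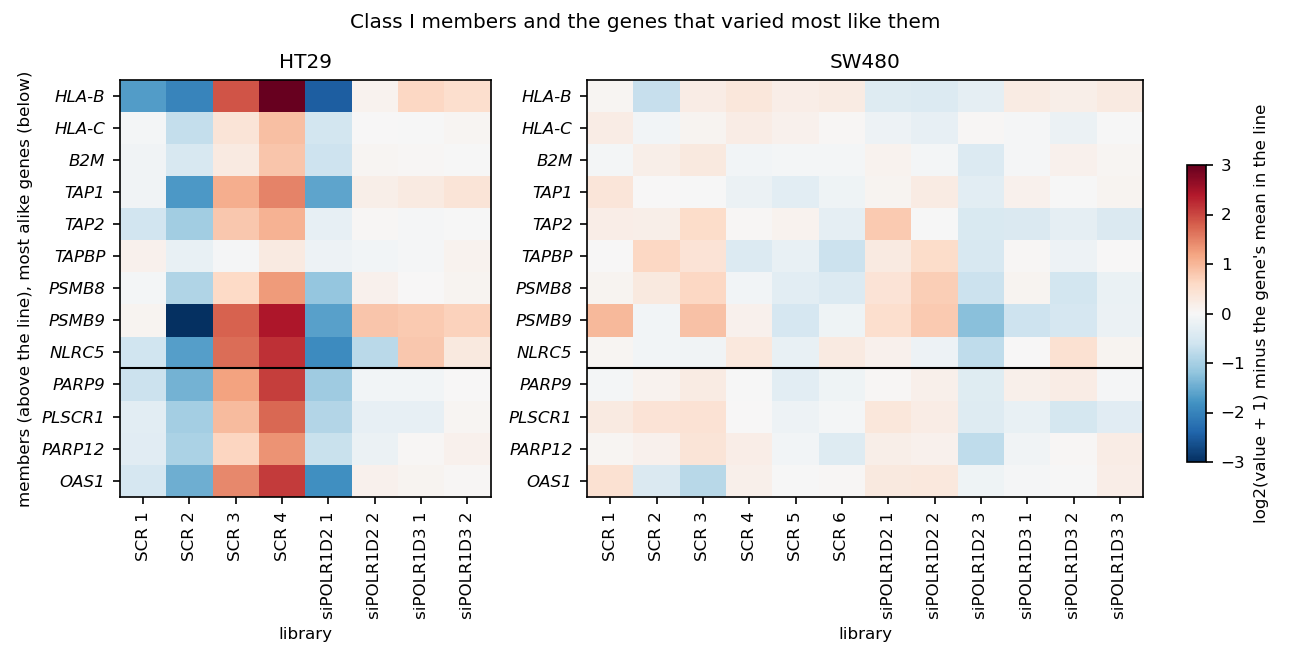
Colour gives log2(value + 1) minus the gene's mean in the line for the 9 members (above the black line) and 4 of the 5 genes most like them (below), by library, and the scale stops at 3 in either direction. HT29 SCR replicates 3 and 4 are red, and SCR replicate 2 and siPOLR1D2 replicate 1 blue, in the rows other than TAPBP, and the SW480 panel is paler.

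All 9 members passed the filter on low values in both lines. In HT29, no member passed the test of silenced against SCR libraries (0 of 9, against 0% of 13274 genes tested). In limma 1422 genes had an unadjusted p under 0.05, none of them a member. The log2 fold changes were -0.80 for NLRC5 (SE 0.89), -0.63 for HLA-B (SE 1.15), -0.47 for PSMB8 (SE 0.45) and -0.36 for TAP1 (SE 0.68). They were -0.25 for B2M and HLA-C, -0.12 for TAP2, -0.08 for TAPBP and 0.34 for PSMB9 (SE 1.41). The positive value of PSMB9 rests on SCR replicate 2, listed at 0, and all 4 silenced libraries were below its SCR median. The intervals were wide, so that for HLA-B the 95% interval ran from -3.19 to 1.94 and for PSMB9 from -2.82 to 3.50. TAPBP had the narrowest, -0.38 to 0.22. The median over the members was -0.25, against 0.00 over all genes tested. Exact 2-sided permutation tests of the 9 members gave p between 0.4 and 0.914, where 4 libraries against 4 cannot go below 0.0286, and both arms overlapped for every member. The size or direction of these values depended on single controls. Without SCR replicate 4 the median was 0.02, and without SCR replicate 2 it was -0.85. The value of PSMB9 ran from -1.26 without SCR replicate 2 to 1.20 without SCR replicate 4.

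In SW480 no member passed the test either (0 of 9), where 6.73% of 15019 genes did. HLA-C was closest. It was at 4643 to 5792 in the SCR libraries (median 5297) and at 4167 to 5091 in the silenced libraries (median 4647). All 6 silenced libraries were below the SCR median and 3 were below every SCR library. The log2 fold change was -0.19 (SE 0.08, 95% interval -0.37 to -0.01, limma adjusted p = 0.187), and the exact 2-sided permutation test gave p = 0.0216, before any correction for the 18 such tests made. HLA-B was at 704 to 1448 in SCR (median 1335) and 869 to 1383 after silencing (median 1124), with a log2 fold change of -0.12. B2M was at 3980 to 5157 (median 4054) and 3153 to 4574 (median 4231), with -0.08. Both arms overlapped for all 9 members.

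Of the transporter genes in SW480, TAP1 was at 598 to 962 in SCR and 598 to 886 after silencing (log2 fold change 0.07, 95% interval -0.20 to 0.35). TAP2 was at 647 to 1159 and 568 to 1359, with siPOLR1D2 replicate 1 the highest library (-0.27, interval -0.71 to 0.17). TAPBP was at 183 to 443 and 204 to 417 (0.08, interval -0.41 to 0.57). The subunit PSMB8 was at 222 to 461 and 190 to 495 (-0.06), and PSMB9 at 42.0 to 119 and 24.6 to 104.6 (-0.42, interval -1.20 to 0.36). The regulator NLRC5 was at 90.6 to 132 and 62.0 to 146 (-0.08). The median over the members was -0.08, against 0.01 over all genes. Upper quartile scaling moved the median over all genes to 0.11 and that of the members to 0.02, so B2M, PSMB8 and NLRC5 changed sign with the scaling. HLA-C was at -0.27 within the side of the first component that holds SCR replicates 1 to 3 and at -0.17 within the other. The members' median was 0.05 and -0.16 within these sides. The first of them holds siPOLR1D2 replicates 1 and 2 as its only silenced libraries, and SCR replicate 1 lies near its edge.

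**Figure D4:**
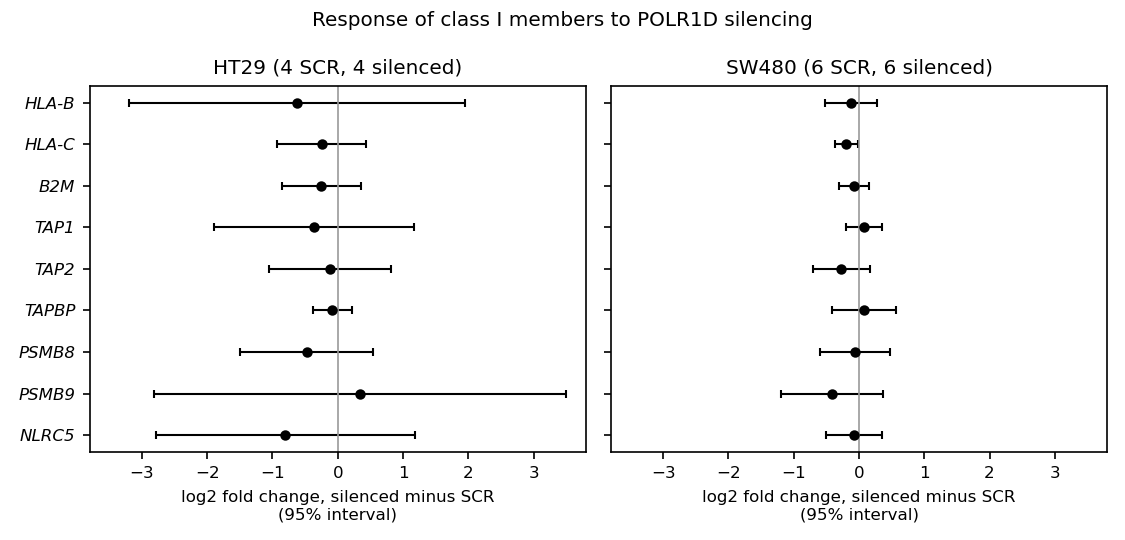
Points give the log2 fold change of silenced against SCR libraries for each member, with 95% intervals from limma, in HT29 (4 against 4) and SW480 (6 against 6). Every interval crosses 0 except that of HLA-C in SW480, -0.37 to -0.01, whose adjusted p was 0.187.

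No member passed the test for a different response in both lines (0 of 9, against 0.0393% of 12724 genes). The differences, SW480 minus HT29, ran from -0.76 for PSMB9 (95% interval -3.53 to 2.02) to 0.73 for NLRC5 (-0.97 to 2.42). For HLA-C the difference was 0.05 (-0.54 to 0.65). A difference of these sizes was not detectable with the spread in HT29.

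Between the siRNAs, HLA-B differed most clearly in SW480, although it did not pass the test. It was at 877, 869 and 953 with siPOLR1D2 and at 1356, 1294 and 1383 with siPOLR1D3, so the groups did not overlap. The SCR libraries, at 704 to 1448, spanned both. Against SCR, the log2 fold change was -0.41 with siPOLR1D2 and 0.17 with siPOLR1D3, and neither passed the test. All siPOLR1D3 libraries and siPOLR1D2 replicate 3 (953) were on 1 side of the first component and the other siPOLR1D2 libraries on the other, so side and siRNA cannot be fully told apart. The log2 difference was 0.58 (SE 0.22, limma adjusted p = 0.149), and 3.32% of genes passed this test in SW480, with 0 of 9 members among them. An exact test of 3 libraries against 3 was not made, since it cannot go below 0.1. In HT29 the siRNA test also called 0 of 9 members, against 0% of all genes, with 207 genes at an unadjusted p under 0.05, and NLRC5 had the largest difference, 1.90 (95% interval -0.77 to 4.56), with 2 libraries a group.

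Singly, the rows of 1 gene name were used differently in each line. HLA-B has 6 rows, and the third held 58.0% of the HT29 SCR value while the sixth held 75.5% of that in SW480. In SW480 the third row was at a mean of 0.930 and in HT29 the sixth was at 9.70. HLA-C has 7 rows, with 53.9% in the fourth in HT29 and 88.6% in the first in SW480. TAP2 has 8 rows, and the eighth held 0.203% in HT29 and 54.9% in SW480. B2M, outside the MHC region, has 2 rows with 52.3% and 47.7% in HT29 and 52.1% and 47.9% in SW480. Some rows repeated the values of another row of the gene in all 20 libraries, to 3 decimals, 2 each of TAP1, TAP2 and PSMB9 and 3 of PSMB8. The files do not name the sequence behind a row.

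**Figure D5:**
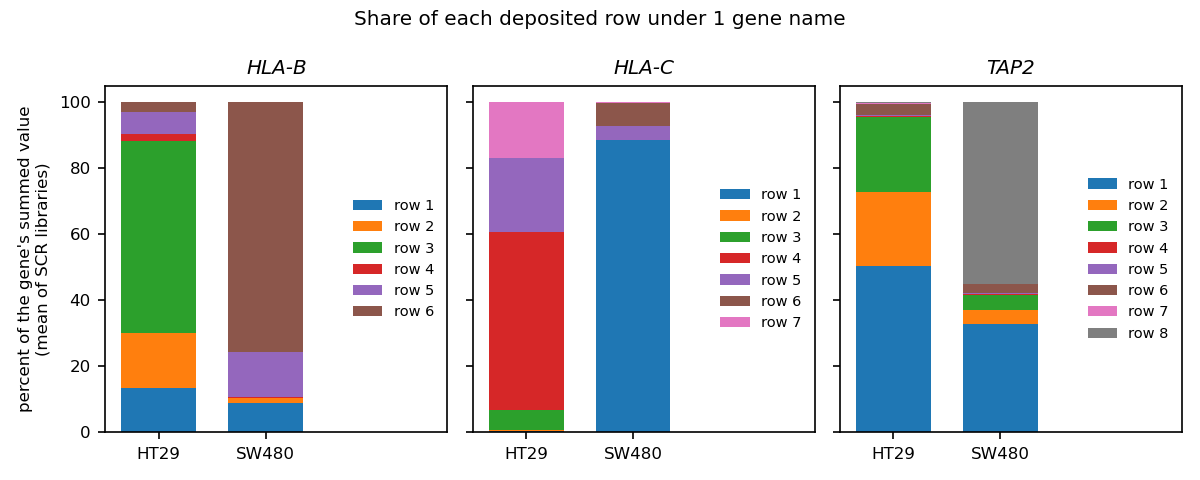
Stacked bars give the percent of the gene's summed value held by each deposited row under that name, as the mean of SCR libraries, for HLA-B, HLA-C and TAP2 in HT29 and SW480. The leading row differs between the lines in all 3 genes.

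The arms of both leading rows overlapped in SW480, and the mean of the HLA-C row was lower after silencing, as for the summed gene. The first row of HLA-C was at 4697 ± 452 (SD, n = 6) in SCR and 4152 ± 333 (n = 6) after silencing, and the sixth row of HLA-B at 928 ± 252 and 905 ± 232.

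Other genes of the pathway were counted from lists. No gene of them passed the test in HT29, where 0% of genes did. Of 8 other class I and class I-like heavy chains, 6 were tested in SW480 and 1 was lower, MR1, which presents vitamin B metabolites to MAIT cells. MR1 fell by 1.05 on the log2 scale in SW480, from a mean of 97.6 to 48.6 (limma adjusted p = 0.031). HLA-E, which is recognised by NK cells, was at a mean of 1493 in SW480 SCR and 1350 after silencing, and at 1882 and 1428 in HT29 (log2 fold change -0.37, limma adjusted p = 0.454), and did not pass in either line. The median of the 6 in SW480 was -0.11.

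Among 6 genes of peptide trimming and loading, 0 passed in either line, and all 6 had negative values in HT29, with a median of -0.59. CALR and PDIA3, a chaperone and a thiol oxidoreductase of the loading complex, were at 31471 to 91290 and 36607 to 116330 in HT29 SCR libraries, against 24936 to 29123 and 28438 to 32591 after silencing. Both arms of these 2 genes were thus apart in HT29, without passing the test (adjusted p = 0.468 and 0.46 by limma), and 1 library set the upper end of the SCR range (medians of 34635 and 39975). In SW480 CALR was at a mean of 20436 in SCR and 28661 after silencing (log2 fold change 0.49, limma adjusted p = 0.149) and PDIA3 at 15860 and 16166 (0.03), and the median of the list was -0.06. CANX, a lectin chaperone, had a log2 fold change of -0.50 in HT29. ERAP1 had the smallest adjusted p of the list in both lines, without passing. Its log2 fold change was -0.72 in HT29 and -0.60 in SW480 (limma adjusted p = 0.424 and 0.0567). ERAP1 was at 693 to 1557 in HT29 SCR and 439 to 692 after silencing. In SW480 it was at 2437 to 5033 and 1476 to 2417, so its arms were narrowly apart in both lines.

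Of 9 other proteasome genes, 1 was lower in SW480. PSME2, a subunit of the interferon-inducible PA28 activator, fell by 0.64 on the log2 scale (mean of 1594 to 1022, limma adjusted p = 0.0226). POMP, an assembly chaperone, and PSME4, another activator, did not pass (log2 fold changes 0.10 and -0.25). The median of the list in SW480 was -0.09.

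Of 18 class I regulators, 3 passed in SW480, all lower, with a median of -0.16 (0.01 over all genes). They were IRF1, a transcription factor of class I genes, which fell by 0.93 (mean of 770 to 399, limma adjusted p = 0.0311), and IFNGR2, a chain of the interferon gamma receptor, which fell by 0.60 (3002 to 1965, adjusted p = 0.0216). JAK1, a kinase of interferon receptor signalling, fell by 0.50 (3409 to 2407, adjusted p = 0.0208). These counts, 1 of 6, 1 of 9 and 3 of 18, stand beside 6.73% of all genes and are descriptions of the lists. None of the 5 passed the test for a different response between the lines (adjusted p of 0.597 to 0.869 by limma). That result does not show a shared response. In HT29 the log2 fold changes were 0.01 for MR1, 0.03 for JAK1, -0.24 for IRF1, -0.33 for IFNGR2 and -0.40 for PSME2. IFNGR2 and JAK1 passed with any 1 of the 12 SW480 libraries left out. PSME2 lost the call without SCR replicate 3, siPOLR1D2 replicate 3 or siPOLR1D3 replicate 1 or 3. MR1 lost it without SCR replicate 3, 4 or 6, siPOLR1D2 replicate 1 or siPOLR1D3 replicate 2. IRF1 lost it without SCR replicate 2, 3 or 6, siPOLR1D2 replicate 3 or any siPOLR1D3 replicate. The highest limma adjusted p were then 0.0513, 0.0705 and 0.0692. Within the side of the first component that holds SCR replicates 1 to 3 none of the 5 passed, and 0 of 15110 genes did in limma (1520 at an unadjusted p under 0.05). That side holds siPOLR1D2 replicates 1 and 2 as its only silenced libraries. Within the other side IRF1, JAK1 and PSME2 passed and IFNGR2 and MR1 did not (limma adjusted p = 0.0959 and 0.0834). With siPOLR1D2 alone IFNGR2 and MR1 passed, and with siPOLR1D3 alone IRF1, JAK1 and PSME2 did, and all 5 were lower with either siRNA. In HT29, 10 of the 18 regulators had positive values and 8 negative, with a median of 0.01. STAT2 had the smallest adjusted p of them there (-0.72, limma adjusted p = 0.355), at 448 to 703 in SCR and 312 to 399 after silencing. In SW480 STAT2 was at -0.62 (limma adjusted p = 0.0961).

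MHC class II genes were low in both lines, with a summed value over 8 genes of 54.7 to 190 per library. CIITA, the class II transactivator, was at a mean of 6.69 in HT29 SCR and 16.8 in SW480 SCR, and CD74, the invariant chain, at 36.0 and 14.2. HLA-DMA was at 36.5 and 81.8. None of those tested passed. The marker lists gave 1 call, KRT20, a keratin of differentiated gut epithelium, which was at 1.73 to 11.2 in SW480 SCR and 20.7 to 94.6 after silencing (log2 fold change 2.74, limma adjusted p = 0.007). KRT20 passed the filter on low values only through the silenced libraries, so it had to differ to be tested at all. In HT29, epithelial markers summed to 214474 to 240134 in SCR and 210166 to 251182 after silencing, and leukocyte markers to 77.9 to 142 and 85.3 to 158. Stromal and endothelial markers summed to 122 to 1258 in SW480 SCR and 126 to 1121 after silencing. COL1A1, a collagen chain, spread over 75.5 to 551 among the SW480 SCR libraries, PDGFRB over 22.3 to 566 and VWF over 17.8 to 130. In HT29 this list summed to 20.3 to 36.0 and 26.5 to 86.8, with COL1A1 at a mean of 18.4 and 45.3 (log2 fold change 1.17, not past the test). The part of these markers in the class I values was not tested. In bulk samples, fewer cells with a gene and less RNA per cell cannot be told apart.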

How the data were processed

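Captured coding transcriptome libraries of HT29 and SW480 cells were sequenced as paired-end reads. Per the labels and methods, the authors checked reads with FastQC (0.11.5), quantified them with kallisto (0.44.0) and normalized with DESeq2 (1.24.0). The named build is hg38. The deposited signal values are these normalized read counts, 1 file a library. The annotation is not given in the sources used here. Only 32.7% to 53.6% of low values were whole multiples of 1 read (tolerance 0.02), so reads per gene were not recovered and no counting intervals are given.

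Rows of 1 name were summed. Tests covered genes that reached 10 in 4 (HT29) or 6 (SW480) libraries and used limma (3.58.1, R 4.3.3) on log2(value + 1) with a mean-variance trend, each line alone. Fold changes on this scale understate those of low genes. p values were adjusted by Benjamini-Hochberg over all genes tested, with 0.05 as the threshold. The interaction used all 20 libraries. Single members were compared by exact 2-sided permutation tests. Alternatives were upper quartile scaling, filters, pseudocounts, trend and robust settings, the replicate block, each siRNA alone, single rows, the side of the first component in SW480 and each library left out. Replicates within a group differed by more than sampling noise (mean chi-square per gene of at least 10.2), and pairs across groups were not compared. This comparison and the estimated depth divided the values by an estimated value of 1 read. Both are approximate, since reads per gene were not recovered.

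The members and lists were chosen with earlier results of these data known. The genes named are all members, POLR1D, list genes that passed the test, otherwise those with the largest values up to 3 a list, and the 5 genes most like the members. ERAP1 and STAT2 were added as the genes with the smallest adjusted p of their lists in HT29. 1 heavy chain and 1 of these 5 genes are counted and not reported here. HLA-B in GENCODE v29 has an annotated span from 31269491 that overlaps HLA-C.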

Additional observations from a re-analysis of the deposited data

Results flagged for a closer look

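In 7 of 36 groups of member values, 1 library stood apart from the others of its arm by Dixon's criterion, which chance alone meets in about 1 in 20 groups. Of these, 4 were the same library. HT29 siPOLR1D2 replicate 1 was low for HLA-C, at 1341 normalized reads where the other 3 silenced libraries were at 1960 to 2037. It was also low for B2M, the light chain, at 5800 (others 8868 to 9303), for PSMB8 at 127 (others 287 to 316) and for PSMB9 at 9.09 (others 49.0 to 53.8). In SW480, HLA-B was at 704 in SCR replicate 2 (others 1199 to 1448). B2M was at 3153 in siPOLR1D2 replicate 3 (others 4057 to 4574). TAP2, a chain of the peptide transporter, was at 1359 in siPOLR1D2 replicate 1 (others 568 to 780).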

How the results depend on the processing

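No member passed the test in SW480 under any of 26 alternatives, or in HT29 under any of 19 except the replicate block. With the replicate number as a block, 735 of 13274 genes and 1 member passed in HT29, TAP2 at 0.75 (limma adjusted p = 0.0498), and 0 of 15019 genes in SW480. Same-numbered libraries did not deviate together on average (mean r of -0.0302 in HT29 and -0.0853 in SW480). Single pairs in SW480 ran from -0.413 to 0.573, so these values cannot show whether a number marks a shared culture. HT29 SCR replicates 3 and 4 add nothing to the fit with the block, since no silenced library has their number. The same holds for SW480 SCR replicates 4 to 6, so that fit set the silenced libraries against SCR replicates 1 to 3 only. POLR1D and the 6 genes of the lists called in SW480 did not pass with the replicate block (limma adjusted p of 0.0865 to 0.182). Of 170 member values in HT29, 148 kept their direction and 22 reversed, and of 234 in SW480, 210 and 24. With the replicate block HT29 values reversed to 1.51 (HLA-B), 0.27 (HLA-C), 0.18 (B2M), 0.74 (TAP1), 0.75 (TAP2), 0.23 (PSMB8) and 0.72 (NLRC5), and SW480 values to 0.076 (HLA-B), -0.091 (TAP1), -0.31 (TAPBP) and 0.0061 (NLRC5). With siPOLR1D3 alone they reversed to 0.24 (HLA-B), 0.15 (TAP1) and 0.15 (NLRC5) in HT29 and to 0.17 (HLA-B), 0.0065 (B2M) and 0.15 (NLRC5) in SW480. With siPOLR1D2 alone they reversed for PSMB9 in HT29 (-0.23) and PSMB8 in SW480 (0.13). Upper quartile scaling, which moved all genes to 0.09 in HT29 and 0.11 in SW480, reversed TAPBP in HT29 (0.011), and B2M (0.021), PSMB8 (0.034) and NLRC5 (0.021) in SW480. The highest row alone gave -0.29 for PSMB9 in HT29, and 0.12 for PSMB8 and 0.035 for PSMB9 in SW480, and a pseudocount of 5 gave -0.11 for PSMB9 in HT29. Side as a covariate gave 0.060 for PSMB8, and the side with SCR replicates 1 to 3 gave 0.076 (TAP2), 0.23 (PSMB8), 0.061 (PSMB9) and 0.033 (NLRC5). With 1 library left out, HT29 values ran from -1.39 to 0.27 (HLA-B), -0.53 to 0.016 (HLA-C), -0.9995 to 0.10 (TAP1), -0.49 to 0.21 (TAP2) and -1.26 to 1.20 (PSMB9). SW480 values ran from -0.042 to 0.21 (TAPBP), -0.22 to 0.058 (PSMB8) and -0.18 to 0.069 (NLRC5). Over all genes, 1011 passed in SW480, against 666 with no filter, 574 with siPOLR1D2 alone, 1993 with side as a covariate, and 0 and 1939 within the sides. Leaving out SCR replicate 3, 4 or 6, siPOLR1D2 replicate 3 or any siPOLR1D3 replicate left 540 to 647. The siRNA test in SW480 called 293 genes with no trend, against 498, and the interaction 97 with the replicate block, against 5. The cause was not tested. The spread of HT29 controls limits what could be seen there, with 95% intervals over 5 log2 units wide for HLA-B and PSMB9.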
